A study of Phyllostachys edulis with 2 samples.

Results

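Immune receptors and defence proteins of Moso bamboo (Phyllostachys edulis) rhizome lateral buds were examined at germination stage and at early shoot stage. They were found by protein name: a transcript was included when the description of its protein match names disease resistance, NBS, NB-ARC, a pathogenesis-related protein, chitinase, thaumatin, blast, rust or powdery mildew resistance or a hypersensitive response, and was left out when it names a virus or WRKY. This gave 16 transcripts of 16 loci, out of 148492 transcripts of 85391 loci. The terms thaumatin, pathogenesis-related, blast resistance and rust resistance occurred in none of these descriptions. The endochitinase PR4 does carry PR, the abbreviation of pathogenesis-related, in its name. Of the 16 loci, 11 were grouped as receptors, 2 as defence proteins (both chitinases) and 3 as other resistance-associated proteins. Among the receptors, 8 have a description that names a resistance protein or its domains, 1 is described as an STK disease resistance protein-like protein and 2 as a plant disease resistance polyprotein.

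Both libraries came from rhizome lateral buds of wild type plants, collected below ground, and no treatment is named for either. They differ in stage, germination or early shoot, and each is a single library made from RNA of pooled buds, so that differences between the stages have no replicates behind them and are given without p-values. The germination library holds 4481221 counted reads and the early shoot library 7878826. Of the 6 names searched as markers of buds and meristems, knotted-1 and cyclin-B were found. The search did not find cyclin-A, cyclin-D, proliferating cell nuclear antigen or histone H4. Cyclins were searched only in the hyphenated form followed by a digit, so other spellings would have been missed. The summed CPM (reads scaled to the same library total) of knotted-1 and cyclin-B was 310.2 in germination and 304.5 in early shoot, but these markers moved apart. Cyclin-B, which drives entry into mitosis, was counted 18 and 227 times and was higher in early shoot (log2 ratio 2.81, 95% interval 2.12 to 3.59). The 4 loci with knotted-1 in their names ran from -1.04 to 0.89 and together were at -0.19. They are different homeobox genes, and not all of them need mark meristems. Knotted-1-like 6 (OSH1) was at 0.89 and knotted 1 at 0.03, whereas knotted-1-like 13 was at -0.52 and knotted-1-like 2 at -1.04. The part of these markers in the differences described here was not tested. Markers of green tissue had a summed CPM of 43.3 and 53.2, and 6 of these 9 transcripts had their match in Arabidopsis. The match of all 16 loci examined here is a protein of a grass, among them 5 from rice species, 4 from wheat and 2 from bamboos. The share of grass matches among all transcripts with a named protein was not counted.

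Plants recognise pathogens with receptors at the cell surface and with receptors inside the cell. Most of the latter carry a nucleotide-binding site (NBS, part of the NB-ARC domain) and leucine-rich repeats (LRR), and are encoded by the genes that breeders know as disease resistance genes. Recognition leads to an oxidative burst, to hormone signals and often to the death of the attacked cell, the hypersensitive response. It also leads to the secretion of proteins that act on the pathogen, among them chitinases, which cut the chitin of fungal walls, and glucanases, which cut beta-glucans. Many of these secreted proteins are also made in healthy tissue during development.

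Of the 3 classes, defence proteins showed the largest shift between stages, but this class holds only 2 chitinase loci. Pairs of values are given with germination first. Both chitinase loci were higher in germination, by 5.38-fold and 26.4-fold. Secreted defence proteins outside this class, described below, went both ways. Osmotin-like proteins (242 and 887 reads) were shifted towards early shoot, and glucan endo-1,3-beta-glucosidases (488 and 245 reads) towards germination. Among the 11 loci grouped as receptors, 1 met the criteria for a call, Locus_34574, on the side of germination. Its description names disease resistance but no receptor domain. A further 2 loci of this group leaned to germination without a call. They are Locus_10259, named as NBS-LRR type, and Locus_5941, whose description names no receptor domain either. The intervals of 7 of the remaining 8 included equality. The 3 other loci were not apart from equal. The RPKM (reads per kilobase of transcript, scaled to the total reads of the library) of every locus at both stages is shown next.

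**Figure D1:**
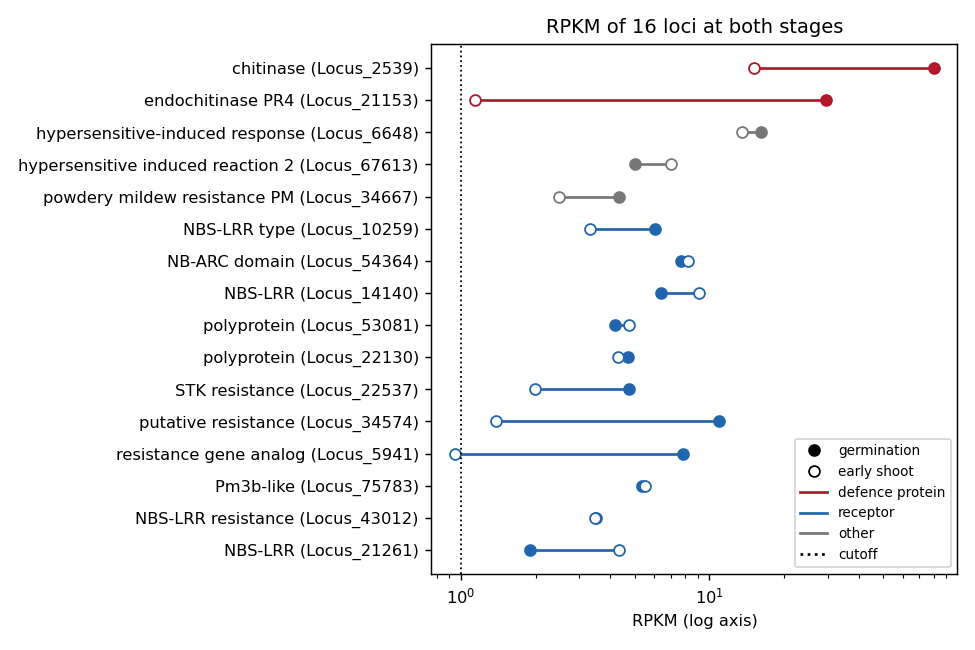
RPKM on a log axis of the 16 loci in the germination library (filled) and the early shoot library (open), with a line joining both values of a locus and a dotted line at the cutoff of 1.0. The chitinase and the endochitinase PR4 fall from 79.9 to 15.2 and from 29.4 to 1.14, while most receptors lie between 1 and 11 at both stages.

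Fold changes are given as log2 of early shoot over germination (log2FC), after division by 1.8, the median of this ratio among transcripts detected at both stages, so that negative values stand for higher expression in germination. Their 95% confidence intervals (CI) are exact Clopper-Pearson intervals for the split of a locus's reads between both stages and account for nothing but counting error. The G-fold value, modelled on that of the program used in the study, is a cautious log2FC, the end nearest to 0 of the range that the counts leave likely at a quantile of 0.01, and is set to 0 when that range includes 0. A locus was called when its G-fold value was beyond 1.0 in either direction with RPKM above 1.0 in both libraries. Of the 16 loci, 15 passed the RPKM cutoff and 3 were called, all of them higher in germination. Of all transcripts that passed this cutoff, 3.77% met the same criteria as higher in germination and 1.4% as higher in early shoot. Over loci whose descriptions name a protein, with the reads of those transcripts summed, these shares were 6.4% and 3.44%. When all transcripts of a locus were counted, described or not, the same 3 of the 16 loci were called, beside 3.7% (germination) and 1.39% (early shoot) of all loci. Of the 4 loci with at least 100 reads, 1 was called, the chitinase of Locus_2539. With as many reads, 8.47% (germination) and 5.62% (early shoot) of loci with a named protein that passed the cutoff were called. Among all transcripts with as many reads that passed it, these shares were 7.74% and 4.29%. In bulk tissue, fewer cells of a type and less RNA per cell cannot be told apart in any of these differences.

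The first chitinase locus, Locus_2539, is matched to a chitinase of the bamboo Bambusa oldhamii. Its transcript, 969 bp long, was read 347 times in germination versus 116 in early shoot. Its RPKM of 79.9 in germination was the highest of the 16 loci and lay above that of 99.4% of all transcripts, and in early shoot its RPKM of 15.2 still lay above 91.7%. The log2FC was -2.43 (95% CI -2.74 to -2.12) and the G-fold value -2.07. The second transcript of the locus, matched to a hypothetical protein of rice, had 320 and 114 reads and a log2FC of -2.34, so that both transcripts moved alike. With the reads of both added there were 667 and 230 reads, and the log2FC was -2.38 (95% CI -2.61 to -2.17). How reads were divided among the transcripts of a locus is not given. If the same reads were counted on several transcripts, intervals of whole loci, here and below, are too narrow.

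The second chitinase locus, Locus_21153, is a single transcript of 334 bp matched to the endochitinase PR4 of maize. It had 44 reads in germination versus 3 in early shoot. Its RPKM was above that of 96.7% of the transcripts in germination and of 12.3% in early shoot. The log2FC was -4.72, and with so few reads in early shoot its interval was wide, from -7.05 to -3.08. The nearer end of the interval is an 8.46-fold difference. The G-fold value was -2.90, the lowest of the 16 loci. Summed over both loci, 391 chitinase reads in germination and 119 in early shoot gave a log2FC of -2.56 (95% CI -2.87 to -2.26), and most of these reads came from Locus_2539. Both chitinases remained beyond a G-fold value of 1.0 under every scaling of the libraries compared.

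**Figure D2:**
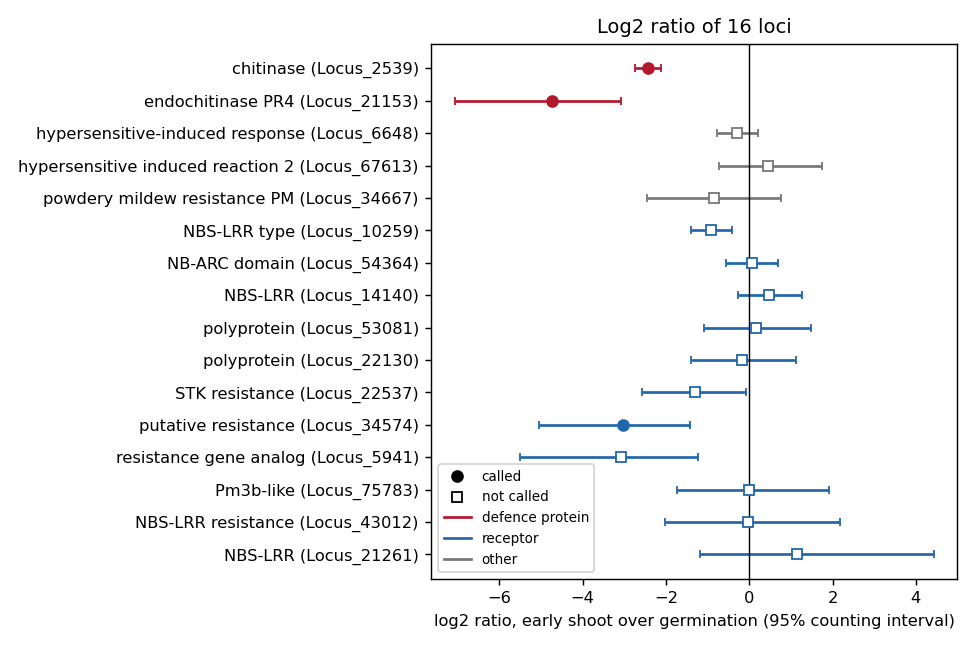
Log2 ratio of early shoot over germination for the 16 loci, with exact 95% counting intervals. Filled circles mark the 3 called loci, which are both chitinases and a putative disease resistance protein, and open squares the loci that were not called. The intervals of 10 loci include 0.

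Receptors were expressed far below the chitinase of Locus_2539 and near the level of the median transcript. Their RPKM ranged from 1.9 to 10.9 in germination and from 0.95 to 9.07 in early shoot, with medians of 5.36 and 4.28, close to the medians of all transcripts above the cutoff, 5 and 4.83. The median log2FC of the 11 loci was -0.04, and -0.02 for the 10 above the RPKM cutoff, compared with 0.03 over all transcripts above it. In 3 of the 11 the G-fold value was below 0 and in 0 it was above it. Of the 10 above the cutoff, 2 (20%) were below 0 and 0 above. Among all transcripts above the cutoff these shares were 13.5% and 12.0%, and among those with a named protein 19.9% and 20.1%. All receptor reads together, 210 in germination and 270 in early shoot, gave a log2FC of -0.49 (95% CI -0.75 to -0.22). Without Locus_10259, which has the most reads, there were 134 and 197 reads and a log2FC of -0.29 (95% CI -0.62 to 0.04). The 9 receptors with fewer than 100 reads, among them Locus_34574 and Locus_5941, had 99 and 131 reads and a log2FC of -0.44 (95% CI -0.83 to -0.05).

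Locus_10259 is matched to an NBS-LRR type disease resistance protein of rice, and its transcript of 2795 bp is the longest of the 16. This transcript had 76 reads in germination versus 73 in early shoot, with RPKM of 6.07 and 3.31. The log2FC was -0.91 (95% CI -1.39 to -0.42) and the G-fold value -0.36, which does not reach the threshold. The other transcripts of the locus, matched to a hypothetical protein of sorghum, had 118 and 83 reads (log2FC -1.36) and 97 and 65 reads (-1.43). All 3 lay on the side of germination. The reads of the whole locus, 291 and 221, had a log2FC of -1.24 (95% CI -1.50 to -0.99) and a G-fold value of -0.95, again just inside the threshold.

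The called receptor, Locus_34574, is matched to a putative disease resistance protein of Moso bamboo itself. Its description, like that of Locus_5941 below, names no NBS, NB-ARC or LRR. Both were grouped as receptors because their descriptions fell in no other class. Locus_34574 can therefore not be told to be a receptor from its name. It is a single transcript of 367 bp with 18 reads in germination versus 4 in early shoot. RPKM was 10.9 and 1.38, and the log2FC -3.02 (95% CI -5.04 to -1.42). Its G-fold value of -1.27 lies close to the threshold: with 22 reads in all, 4 in early shoot is the highest number that still gives a call. Locus_5941, a transcript of 400 bp matched to a disease resistance gene analog of the wild rice relative Zizania latifolia, had a similar split, with 14 reads in germination versus 3 in early shoot. The log2FC was -3.07 (95% CI -5.51 to -1.23) and the G-fold value -1.09, but with an RPKM of 0.95 in early shoot it did not pass the cutoff and was not called. The cutoff leaves out loci that fall to a low level in one library, so these 2 loci with nearly the same ratio stand on different sides of it.

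The receptors with the most reads after Locus_10259 were not apart from equal. Locus_54364 is matched to an NB-ARC domain containing protein of wheat, and its transcript of 1016 bp had 35 and 66 reads with RPKM of 7.69 and 8.24. Its log2FC was 0.07, and the 95% CI -0.55 to 0.70 leaves no room for a change of 2-fold in either direction as far as counting error goes. Locus_14140, matched to an NBS-LRR disease resistance protein of the wild rice Oryza rufipogon, had 22 and 55 reads on 770 bp. RPKM was 6.38 in germination and 9.07 in early shoot, the highest receptor value at that stage, and the log2FC was 0.47 (95% CI -0.26 to 1.26). Both had G-fold values of 0.

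The remaining receptors with a name of this kind had 14 or fewer reads. Locus_75783 is matched to a Pm3b-like protein of wheat, named for a wheat gene for resistance to powdery mildew, and had 5 and 9 reads, which is the median ratio of 1.8 (log2FC 0.00, 95% CI -1.73 to 1.93). Locus_43012, matched to an NBS-LRR resistance protein of ryegrass, had 4 and 7 reads (log2FC -0.04, 95% CI -2.02 to 2.18). Locus_21261, matched to an NBS-LRR disease resistance protein of foxtail millet, had 2 and 8 reads and the highest log2FC of the 16 loci, 1.15. Its 95% CI -1.17 to 4.42 includes 0. Differences of several fold in these 3 loci were not detectable at this depth.

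The STK disease resistance protein-like transcript of Locus_22537 lay on the opposite side of its own locus. Of 6 transcripts it is the only one with a protein match, and it had 15 reads in germination versus 11 in early shoot, a log2FC of -1.30 (95% CI -2.56 to -0.08) with a G-fold value of 0. The other transcripts of the locus had 1, 7, 1, 2 and 9 reads in germination and 2, 37, 12, 10 and 22 in early shoot, all with log2FC values above 0. With the reads of the whole locus, 35 and 94, the log2FC was 0.58 (95% CI 0.00 to 1.18). The direction of this locus therefore depended on whether the described transcript or all transcripts were counted, and neither value was called.

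Neither polyprotein locus was apart from equal, and changes beyond 2-fold in either direction lie within both intervals. Locus_22130 had 10 and 16 reads (log2FC -0.17, 95% CI -1.40 to 1.13), or 16 and 21 with its second transcript (-0.46). Locus_53081 had 9 and 18 reads (log2FC 0.15, 95% CI -1.08 to 1.49), and each is matched to a rice protein. Although the description names disease resistance, polyprotein is a usual name for the product of a retrotransposon, and the second transcript of Locus_22130 is matched to a retrotransposon protein of rice. Leaving out these loci and the STK locus, a choice made after the values were seen, changed little. The 8 remaining loci had 176 and 225 reads, a log2FC of -0.49 (95% CI -0.78 to -0.20) and a median log2FC of -0.02, and the same single locus was called. They still include Locus_34574 (18 and 4 reads), which is the called locus, and Locus_5941 (14 and 3 reads). The descriptions of both name no NBS, NB-ARC or LRR. Sums without both were not calculated, so a shift of loci named as NBS-LRR receptors cannot be read from these values.

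**Figure D3:**
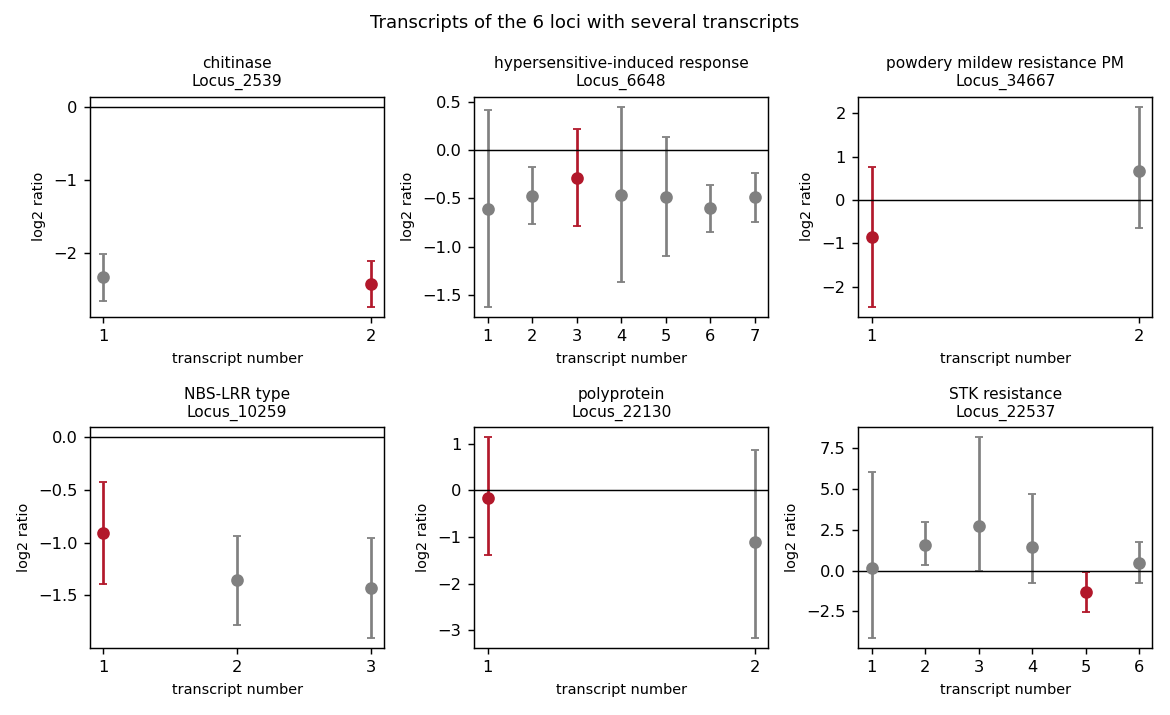
Log2 ratio of early shoot over germination, with exact 95% counting intervals, for each transcript of the 6 loci that have several transcripts. Red marks the transcript whose description names a resistance or defence protein, grey the others. The transcripts of the chitinase, hypersensitive-induced response and NBS-LRR type loci lie on one side of 0, whereas in the STK locus the red transcript at -1.30 lies opposite to the grey ones. Vertical scales differ between panels.

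The other resistance-associated loci were not apart from equal. Hypersensitive-induced response proteins are membrane proteins named for their link to the death of attacked cells. Locus_6648, matched to one of these in rice, had 59 reads in germination versus 87 in early shoot on its described transcript of 816 bp, a log2FC of -0.29 (95% CI -0.78 to 0.21). Its RPKM, 16.1 and 13.5, was the highest of the 16 loci after the chitinases in germination and second to the chitinase of Locus_2539 in early shoot. The 7 transcripts of the locus together had 804 and 1018 reads, more than any other locus examined here. Their log2FC values all lay between -0.61 and -0.29, and the sum had a log2FC of -0.51 (95% CI -0.64 to -0.37) and a G-fold value of -0.35. This is a small shift to germination, and the described transcript alone did not stand apart from equal.

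Locus_67613, matched to hypersensitive induced reaction protein 2 of wheat, had 9 and 22 reads and a log2FC of 0.44 (95% CI -0.73 to 1.74). Locus_34667, matched to a powdery mildew resistance protein of wheat, had 8 reads in each library on the described transcript (log2FC -0.85, 95% CI -2.46 to 0.76). Its second transcript, of the same length, 410 bp, had 7 and 20 reads, and the locus as a whole a log2FC of 0.05.

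Read depth limited what could be called. The median transcript of the 16 loci was 442 bp long, 10 of the loci had transcripts under 500 bp, and 10 had 31 or fewer reads in both libraries together. At the number of reads and the length of each locus, a call in germination above the cutoff was possible for 12 of the 16 loci and a call in early shoot for only 6, 3 of them receptors. For the 10 other loci a call in early shoot could not have been made. Among all transcripts above the cutoff, those with at least 16 and fewer than 32 reads were called in 2.54% of cases in germination and 0.00526% in early shoot, against 8.84% and 4.98% of those with at least 256 and fewer than 512 reads. The plot by reads sets the 16 loci on this background.

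**Figure D4:**
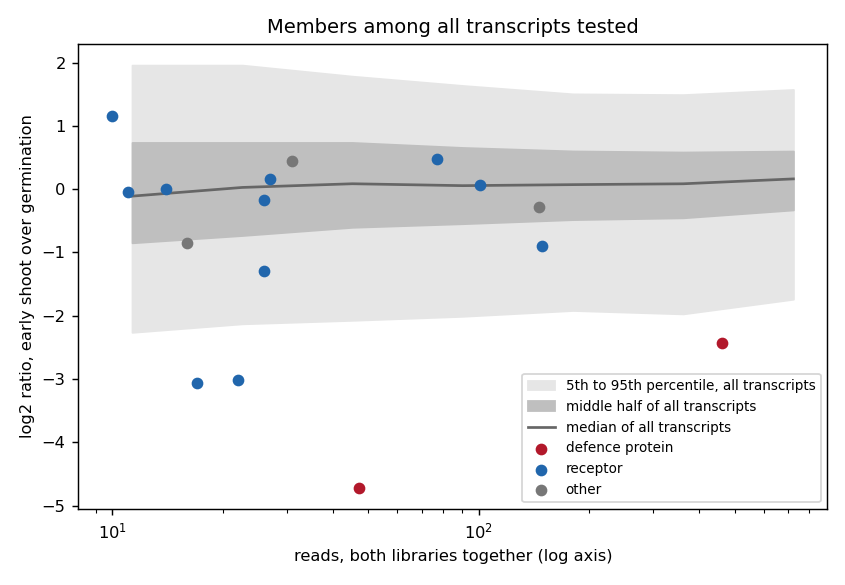
Log2 ratio of early shoot over germination against the reads of both libraries together, on a log axis. Grey bands show the ranges between quartiles and between the 5th and 95th percentiles of all transcripts above the RPKM cutoff with reads in both libraries, in bins of reads, and points the 16 loci. Both chitinases lie below the outer band, as do Locus_34574 and Locus_5941, which were grouped as receptors. The receptors with 77 to 149 reads lie inside that band.

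Other genes of immunity were searched by name from a list of 21 names, of which 10 were found, on 43 transcripts of 20 loci. The list was written with earlier results of these data known. Of the 20 loci, 17 passed the RPKM cutoff, and 8 of these 17 were called higher in germination and 0 in early shoot, beside 6.4% and 3.44% of all loci with a named protein that passed it. The median log2FC of the 20 was -1.59. These loci were read more deeply than the receptors. Of the 16 with at least 100 reads, 15 passed the cutoff and 7 of these 15 were called. Among all loci with a named protein and as many reads that passed it, 8.47% were called in germination and 5.62% in early shoot.

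Chaperones that NBS-LRR receptors need for folding and stability were close to level between stages, with log2FC values of at most 0.45. RAR1, which acts with SGT1 and the heat shock protein HSP90, had 159 reads in germination versus 392 in early shoot on Locus_3968, a log2FC of 0.45 (95% CI 0.18 to 0.73). SGT1, on Locus_945, had 652 and 1257 reads and a log2FC of 0.10 with a 95% CI -0.04 to 0.24. HSP90 had 1244 and 2834 reads on 2 loci, with a log2FC of 0.34 (95% CI 0.24 to 0.44). None of these 4 loci was called. In the intervals of the sums of all 3 proteins, a change of 2-fold in either direction is left out as far as counting error goes.

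The NPR1, respiratory burst oxidase, lipoxygenase and phenylalanine ammonia-lyase loci all had negative log2FC values on their described transcripts. Of these 10 loci, 6 were called in germination. Among all loci with a named protein that passed the cutoff, 6.4% were called in germination and 3.44% in early shoot. Other groups of the list did not share this direction, as chaperones were close to level and secreted proteins went both ways. NPR1 is the regulator through which salicylic acid turns on defence genes in Arabidopsis. NPR1-like 1, on Locus_19898, had 94 reads in germination versus 29 in early shoot and was called, with a log2FC of -2.54 (95% CI -3.20 to -1.93). Respiratory burst oxidases produce the superoxide of the oxidative burst. Both loci matched to respiratory burst oxidase protein D of rice were called, Locus_1861 with 163 and 11 reads (log2FC -4.74) and Locus_3337 with 125 and 14 (-4.01). Whether loci that share a protein name, here and elsewhere in the list, are separate genes was not determined. Counts of called loci may therefore hold the same gene more than once. Locus_3256, matched to the forms B and F2, had 233 and 293 reads and a log2FC of -0.52, and was not called. Locus_8664 was called on its described transcript (82 and 47 reads, log2FC -1.65), but all its transcripts together had 287 and 516 reads and a log2FC of 0.00.

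Lipoxygenases, which start the synthesis of jasmonate and other oxylipins, had 3056 reads in germination versus 1775 in early shoot, a log2FC of -1.63 (95% CI -1.72 to -1.55), and 2 of their 3 loci were called. Phenylalanine ammonia-lyase opens the pathway to lignin and to phenolic defence compounds. Its described transcripts had 143 and 14 reads on 2 loci, a log2FC of -4.20 (95% CI -5.11 to -3.41), but their RPKM in early shoot was below the cutoff and they were not called. With the reads of all transcripts of Locus_1080, 1525 and 294, phenylalanine ammonia-lyase had a log2FC of -3.22 and passed both criteria.

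Secreted defence proteins outside the chitinases went both ways. Glucan endo-1,3-beta-glucosidases had 488 and 245 reads, a log2FC of -1.84 (95% CI -2.07 to -1.62). Of their 3 loci, Locus_4064 (422 and 195 reads, log2FC -1.96) and Locus_15951 (55 and 12 reads, -3.04) were called in germination, and Locus_11684, matched to the form 6 of maize, had 11 and 38 reads and a log2FC of 0.94 with a 95% CI -0.06 to 2.06. Osmotin-like proteins belong to the thaumatin family of secreted proteins, but their descriptions do not name thaumatin and so they are not among the 16 loci. Both osmotin-like loci were shifted towards early shoot, with nearly the same ratio. Locus_4356 had 152 and 555 reads (log2FC 1.02) and Locus_34858 had 90 and 332 (1.04), with G-fold values of 0.72 and 0.64 that do not reach the threshold. All 5 osmotin-like transcripts together had 242 and 887 reads and a log2FC of 1.03 (95% CI 0.82 to 1.24). A LysM receptor-like kinase, of the family that binds chitin fragments at the cell surface, also lay on that side (23 and 93 reads, log2FC 1.17, 95% CI 0.50 to 1.89). Its G-fold value was 0.40, and it was not called. All transcripts of its locus together had 174 and 531 reads and a log2FC of 0.76.

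**Figure D5:**
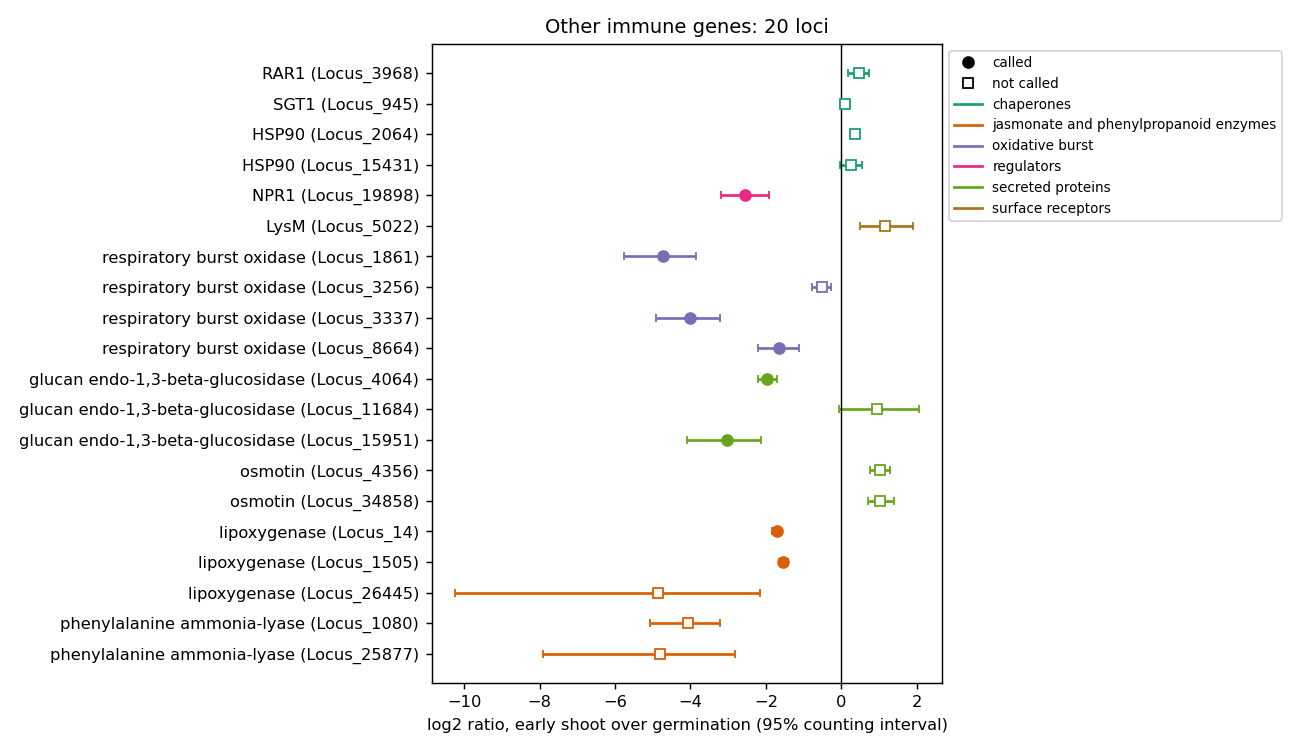
Log2 ratio of early shoot over germination for the 20 loci of other immune genes, with exact 95% counting intervals. Filled circles mark the 8 called loci and open squares the others, and colours the groups. Chaperones lie between 0.10 and 0.45, both osmotin-like loci near 1, and most oxidases, glucosidases, lipoxygenases and phenylalanine ammonia-lyases below -1.5.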

How the data were processed

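RNA of pooled rhizome lateral buds was sequenced by the authors as 1 library per stage. The authors deposited for each library a table of read counts per assembled transcript, without normalization, and an RPKM for each transcript, which scales the count by transcript length and by the total of the table. Recalculated RPKM differed from the deposited values by at most 0.0483. The submitters' processing notes name TopHat2 2.0.8b and Cufflinks 2.2.1. The study's methods map reads to the draft genome, merge gene models and search rice proteins, but the tables name transcripts in the form of a de novo assembly and match them to proteins of many species. The assembler, counting program and protein search behind these tables, and the division of reads among transcripts of a locus, are not given in the sources used here. Genome positions and sequences were not used here.

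Reads and RPKM of the matching transcripts were summed per locus with pandas 2.3.3, NumPy 2.4.6 and SciPy 1.17.1 under Python 3.11.15. The G-fold value was calculated without the program itself, as the exact beta posterior of the rate ratio after adding 1 read per library. The calculation was tested on simulated data with counting error only, so that test says nothing about variation between buds. The log2 fold changes (log2FC) had no reads added. Descriptions that name a disease resistance response or a chitinase were grouped as defence proteins, those that name powdery mildew or a hypersensitive response as other, and the rest as receptors. The rule for named genes took every called locus, the 20 with the most reads and the 3 largest and smallest G-fold values of each class, and thereby all 16 loci. In the list of other immune genes, thionin was searched only at the start of a word. HSP90 was searched also under other names of this heat shock protein, among them heat shock protein 90. A named protein is a match that is not hypothetical, predicted or a bare gene number. The members and lists were chosen with earlier results of these data known. Alternatives were scalings by total reads, by edgeR 4.0.16 TMM factors (R 4.3.3) and by the upper quartile, other rules for a call, and other ways to sum a locus.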

Additional observations from a re-analysis of the deposited data

How the results depend on the processing

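The other scalings of the libraries, 1.76 for the table totals, 1.76 for TMM and 1.7 for the upper quartile, raised every log2FC by 0.03 to 0.08 and changed no call among the 16 loci. The number of receptor loci called was 1. It was 2 with the plain log2FC after adding 1 read, 3 (2 in germination and 1 in early shoot) with log2 of RPKM with 0.1 added, 2 without the RPKM cutoff, 0 with a threshold of 2.0 and 0 when at least 100 reads were required. Among the defence proteins 2 loci were called under each alternative run, apart from the minimum of 100 reads, which left 1. Without Locus_2539, the log2FC of the summed chitinase reads was -4.72, as the endochitinase PR4 alone remains. The summed reads of the receptors kept a log2FC below 0 under each alternative, from -0.68 with all transcripts of each locus to -0.29 without Locus_10259. Counting the most abundant matching transcript of a locus gave the same values, since each locus has 1. With reads of whole loci the same 3 loci were called. No paired analysis was possible because each stage has 1 library, and no library could be left out.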

Other observations

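Further proteins with a role in disease were looked for under 7 names after the values had been seen. Mlo proteins span the membrane, and loss of the barley Mlo protein gives resistance to powdery mildew. The 3 Mlo loci differed in direction. Locus_43675, matched to the barley mlo defense gene homolog4 of maize, had 16 reads in germination versus 123 in early shoot and was called in early shoot (log2FC 2.09, 95% CI 1.34 to 2.95). Locus_27569, matched to MLO2 of rice, had 54 and 2 reads, a log2FC of -5.60 (95% CI -8.68 to -3.68), but its RPKM in early shoot, 0.24, was below the cutoff. Locus_15510, matched to Mlo4 of rice, had 211 and 162 reads on 4 transcripts and a log2FC of -1.23, and was not called.

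The transcript matched to harpin induced gene 1 of rice, named for induction by the bacterial elicitor harpin, had 74 reads in germination versus 6 in early shoot on Locus_17027. It was called in germination, with a log2FC of -4.47 (95% CI -5.96 to -3.28). A putative nematode-resistance protein (Locus_9858) had 15 reads in germination versus 0 in early shoot and a log2FC of -2.69 or lower by the upper end of its 95% CI. With an RPKM of 0 in early shoot it was below the cutoff and was not called. The 3 germin-like loci had 17 and 32 reads together and a log2FC of 0.06 with a 95% CI -0.83 to 1.01. The avr9 elicitor response protein of Locus_1211, named for a fungal avirulence factor, had 123 and 112 reads and a log2FC of -0.98 (95% CI -1.37 to -0.60). The avirulence protein-interacting protein of Locus_16690 had 23 and 66 reads (log2FC 0.67, 95% CI -0.03 to 1.43), and the wound responsive protein of Locus_19689 had 2 and 21 (log2FC 2.54, 95% CI 0.51 to 5.68). With all transcripts of each locus the log2FC values were nearer to equal. They were -0.41 for Locus_1211, 0.03 for Locus_16690 and 1.45 for Locus_19689. None of these last 3 loci was called.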
